A study of Danio rerio with 12 samples.

Results

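How much of the moonshine phenotype in the zebrafish transcriptome depends on the hour of collection was measured as a difference between differences, over all 12 of the 12 libraries of the series. For each gene the mon over sibling log2 fold change at 22 hours post fertilization (hpf) was subtracted from that at 30 hpf. A negative difference therefore marks a gene that stood lower in mon, relative to siblings, at 30 hpf than at 22 hpf. Embryos of the moonshine line (mon), mutant in trim33, lack red blood cells. The allele is not named in the sources used here. There were 3 libraries each of mon embryos at 30 hpf, siblings labelled wild-type/het at 30 hpf, mon embryos at 22 hpf and siblings at 22 hpf. Clutches 3, 4 and 9 were collected at 30 hpf and clutches 9, 11 and 13 at 22 hpf, and each clutch gave 1 mon and 1 sibling library, from pools of 30 whole embryos. All embryos carried the drl:EGFP reporter from 1 parent, and mon embryos were told from siblings by its fluorescence shortly before the 22 hpf collection. The groups therefore rest on phenotype, the sibling pools may hold heterozygous carriers, and each clutch is the offspring of a single mating. Clutch 9 is the only clutch number present at both stages, and the labels do not say whether it was a single spawning, so stage and clutch can be told apart only in part.

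The product of trim33, TIF1γ, is a transcriptional cofactor that blood cell genes need for elongation by RNA polymerase II. In zebrafish embryos the primitive red cells arise in the intermediate cell mass, build up embryonic globins, heme and a spectrin-based membrane skeleton, and enter the circulation at around the start of the second day. The interval between the collections spans the time at which sibling embryos accumulate those products. In RNA of whole embryos, fewer red cells and less RNA per red cell cannot be told apart. Transcripts of the same gene in other tissues are counted in the same value.

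Libraries held 18233320 to 23135676 gene counts and 26261 to 26974 detected genes. Levels are CPM, counts scaled to the library total multiplied by a TMM scaling factor, and are not divided by gene length. The factors were 0.967 to 0.9759 at 30 hpf and 1.02 to 1.042 at 22 hpf. Values per library follow the order clutch 3, 4, 9 at 30 hpf and clutch 9, 11, 13 at 22 hpf. The p-values set an effect against the variation of the mon over sibling ratio between clutch pairs, pooled over both stages. The estimate of that variation had 4 residual degrees of freedom per gene, moderated over genes by a median prior of 79.2. For most genes it therefore rests mainly on what was shared over genes. Fold changes are log2 ± SE from 1 edgeR quasi-likelihood fit with the clutch pair as a block, and p-values are adjusted over the 21778 genes tested. The summed level of 6 erythroid marker names was 10.8 to 13.7 CPM in mon and 1530 to 1700 CPM in siblings at 30 hpf. At 22 hpf that sum was 7.53 to 11.0 CPM in mon and 236 to 278 CPM in siblings. The sums of endothelial, muscle, neuronal and epidermal markers changed far less between mon and siblings. Neuronal markers, 4 in number, summed to 540 to 566 CPM in mon and 585 to 644 CPM in siblings at 30 hpf. At 22 hpf the neuronal sums were 246 to 278 CPM in mon and 251 to 258 CPM in siblings.

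The mon effect differed between the stages in 105 of the 21778 genes tested (0.482%). The difference was positive in 48 genes (0.22%) and negative in 57 genes (0.262%). In each of the 105, the 3 clutch-pair ratios of one stage all lay on the same side of the 3 of the other stage, a pattern that 12.8% of all genes tested show. The difference within clutch 9, the number present at both stages, therefore also had the same sign in all 105. This follows from the pattern of the pair ratios. The 105 genes were called on these same libraries, so neither the pattern nor the sign is a separate check. At 30 hpf 673 genes were called in mon (3.09%), 334 higher (1.53%) and 339 lower (1.56%). At 22 hpf 322 genes were called (1.48%), 138 higher (0.634%) and 184 lower (0.845%). A total of 504 genes were called at 30 hpf and missed the threshold at 22 hpf, and the difference was called in 43 of them. Conversely 153 genes were called at 22 hpf and missed the threshold at 30 hpf, and the difference was called in 27 of those. The median SE of the log2 difference over all genes tested was 0.21, so a difference that was not called does not mean equal effects. The median log2 difference over all genes tested was 0.0029, a value that the scaling of the libraries sets (0.0156 with library totals alone). Of the 105 genes, 41 were called under all 13 alternatives that kept the block, and 19 were called when the clutch block was dropped.

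**Figure D1:**
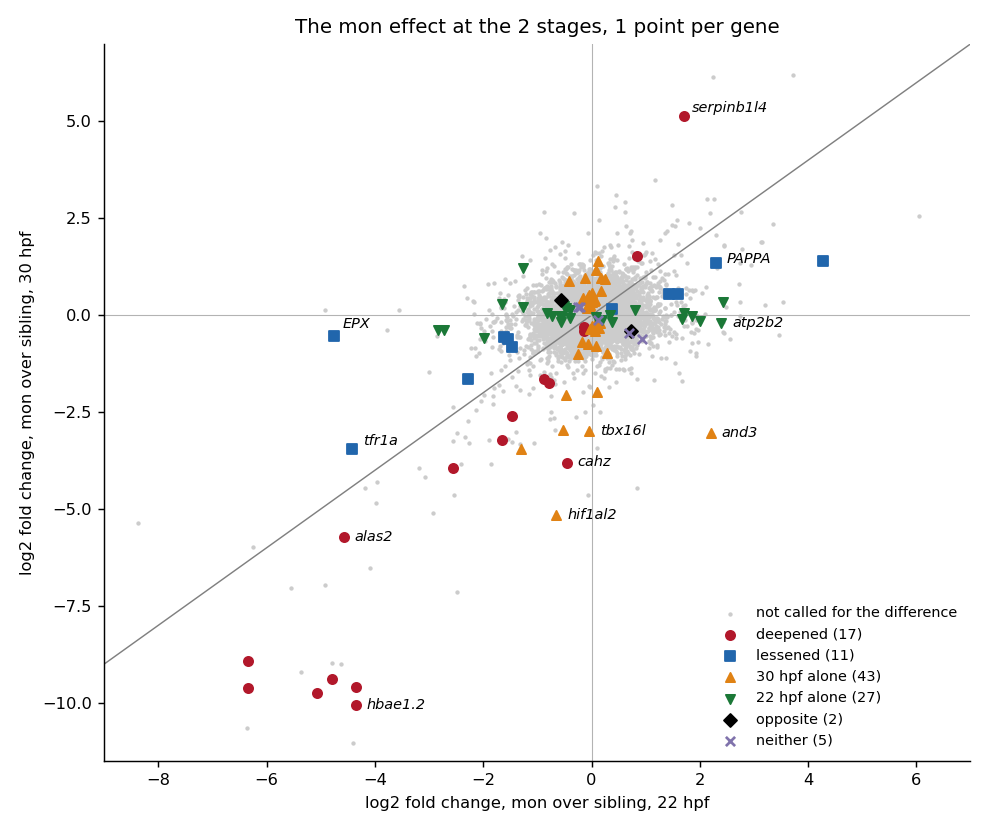
Each point is a gene, placed by its mon over sibling log2 fold change at 22 hpf (horizontal axis) and at 30 hpf (vertical axis), with the 105 genes called for the difference coloured by class and the diagonal marking equal effects. The 17 deepened genes include globins near -10 at 30 hpf, EPX lies far above the diagonal among the 11 lessened genes, and most genes called at 30 hpf alone (43) or 22 hpf alone (27) lie near one axis.

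Among the 105 genes, the effect deepened in 17, in that it was called at both stages with the same sign and was larger at 30 hpf. Of these, 15 were lower in mon. It lessened in 11, of which 6 were lower in mon. A further 43 were called at 30 hpf alone (21 higher in mon and 22 lower) and 27 at 22 hpf alone (11 higher in mon and 16 lower). In 2 genes the calls had opposite signs, and in 5 neither stage passed the test by itself although the difference did.

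The mutated gene itself was among the genes called at 22 hpf alone. The transcript of trim33 (ENSDARG00000016181) had 72.8, 72.8 and 71.7 CPM in mon and 75.5, 76.3 and 78.0 CPM in siblings at 30 hpf. In the 22 hpf libraries the values were 50.7, 57.6 and 67.7 CPM in mon and 85.7, 84.2 and 89.4 CPM in siblings. The groups were separate at both stages, by a narrow gap at 30 hpf and a wide one at 22 hpf. Its effect was -0.08 ± 0.05 at 30 hpf and -0.57 ± 0.06 at 22 hpf, a difference of 0.49 ± 0.08 (edgeR, adjusted p = 1.41e-05), and the exact two-sided permutation p of the 3 pair ratios against 3 was 0.1, the smallest possible. Without the clutch block the difference missed the threshold (edgeR, adjusted p = 0.415). Mutant transcripts can be stable, which limits what this level says of the genotypes. On the chromosome that carries trim33 in the RefSeq annotation of GRCz12tu lay 5 other called genes, alas2, cpox, gpx8, nt5dc2 and si:dkey-75a21.2, of 64 called genes found in that annotation by name. The 608 other tested genes on it made up 4.31% of the 14098 tested genes found by name, and linkage to the mutation was not tested.

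Globins made up the deepest part of the stage-dependent loss. The share of all counts taken by the 16 globin genes of the table was 0.000356 ± 1.32e-05% in mon and 0.273 ± 0.00392% in siblings at 30 hpf (SD, n = 3 each). At 22 hpf it was 0.00108 ± 0.000199% in mon and 0.0352 ± 0.00337% in siblings. The log2 ratio of mon over sibling averaged -9.58 ± 0.07 over the 30 hpf clutch pairs and -5.04 ± 0.22 over the 22 hpf pairs (SD). The difference of -4.54 was close to the -4.72 found within clutch 9, and the exact two-sided permutation p of 0.1 is the smallest that 3 pairs against 3 allow. Siblings thus carried more globin RNA at the later stage, while the little found in mon did not increase. Of 11 globin genes tested, 5 were called for the difference, and all 5 differences were negative (edgeR; 6 with DESeq2 and 9 with limma-voom). All 11 were lower in mon at each stage. Over all genes, 0.262% had a negative difference called, and 1.56% at 30 hpf and 0.845% at 22 hpf were lower.

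The alpha-like embryonic globin hbae3 (ENSDARG00000079305) stood at 1.48, 1.18 and 1.06 CPM in mon and 833, 797 and 857 CPM in siblings at 30 hpf. At 22 hpf it had 4.5, 2.54 and 5.26 CPM in mon and 128, 106 and 104 CPM in siblings. All mon libraries lay below all sibling libraries at both stages, and the mon values of 30 hpf lay below those of 22 hpf. Its effect was -9.38 ± 0.15 at 30 hpf and -4.80 ± 0.14 at 22 hpf, a difference of -4.58 ± 0.32 (edgeR, adjusted p = 0.00297). The alpha-like gene hbae1.1 (ENSDARG00000089475) had a difference of -3.83 ± 1.04 that missed the threshold (edgeR, adjusted p = 0.0764). The beta-like globin hbbe3 (ENSDARG00000038147) had 0.296, 0.592 and 0.621 CPM in mon and 494, 354 and 388 CPM in siblings at 30 hpf, and 1.36, 0.953 and 0.537 CPM in mon and 77.7, 79.0 and 80.7 CPM in siblings at 22 hpf. Sibling libraries of the later stage were higher than those of the earlier one, and the difference was -3.28 ± 0.33 (edgeR, adjusted p = 8.05e-08). The alpha-like gene hbae1.2 (ENSDARG00000088330) showed the most negative difference of all 105 called genes. It had 0.197, 0.0911 and 0 CPM in mon and 111, 111 and 96.2 CPM in siblings at 30 hpf, against 0.436, 0.454 and 0.322 CPM in mon and 9.93, 7.16 and 8.47 CPM in siblings at 22 hpf. The difference was -5.71 ± 0.57 (edgeR, adjusted p = 8.78e-13). No mon library of 30 hpf reached the lowest mon library of 22 hpf for this gene.

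The name table gives 4 tested beta-like globins the human symbol HBE1, and 2 of them were called for the difference. The copy ENSDARG00000113599 averaged 0.658 ± 0.154 CPM in mon and 570.3 ± 151 CPM in siblings at 30 hpf, and 2.16 ± 1.47 CPM in mon and 73.0 ± 25.6 CPM in siblings at 22 hpf. Its difference was -4.67 ± 0.23 (edgeR, adjusted p = 2.86e-17), and that of the copy ENSDARG00000087390 was -5.23 ± 0.40 (edgeR, adjusted p = 6.33e-07). Without the block ENSDARG00000113599 missed the threshold and ENSDARG00000087390 was called (edgeR, adjusted p = 0.408 and 0.00873). The copies ENSDARG00000045143 and ENSDARG00000115405 had differences of -4.37 ± 1.2 and -6.64 ± 1.09 and missed the threshold (edgeR, adjusted p = 0.0764 and 0.214). Reads of near-identical globin copies may be split in the counting, so values of single copies are uncertain. At 22 hpf the alpha-like globin hbae5 (ENSDARG00000045142) held no read in mon against 119 reads in siblings, a level at least 41.0-fold lower when the mon group is set to a floor of 3 counts. Its fitted difference of 3.03 ± 1.76 (edgeR, adjusted p = 0.742) was the 1 positive value among the 11 globins, and with no mon read at 22 hpf its size depends on the prior count of the fit. At 30 hpf hbae4 (ENSDARG00000045144) held no read in mon against 190 in siblings, at least 65.9-fold lower by the same floor. The call of hbae3 was lost without clutch 9 at 22 hpf (edgeR, adjusted p = 0.0803), and its adjusted p ran from 9.95e-100 to 0.0803 over the 13 alternatives.

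Red cell enzymes gave the gene with the clearest deepening. The carbonic anhydrase cahz (ENSDARG00000011166), the abundant form of zebrafish red cells, had 5.52, 3.73 and 5.23 CPM in mon and 67.4, 62.3 and 71.6 CPM in siblings at 30 hpf, and the groups were far apart. The 22 hpf libraries had 25.7, 15.6 and 17.1 CPM in mon and 36.3, 22.4 and 21.6 CPM in siblings, where the groups overlapped. It fell by 3.80 ± 0.10 on the log2 scale at 30 hpf and by 0.46 ± 0.08 at 22 hpf, a difference of -3.34 ± 0.13 (edgeR, adjusted p = 4.75e-37). The 5'-nucleotidase gene nt5c2l1 (ENSDARG00000034852) was called at 30 hpf alone. It had 6.60, 7.19 and 6.52 CPM in mon and 29.0, 22.8 and 29.3 CPM in siblings at 30 hpf. In the 22 hpf libraries the values were 29.2, 29.3 and 25.6 CPM in mon and 26.6, 27.8 and 23.8 CPM in siblings, where the groups overlapped. Siblings thus held about the level of 22 hpf while mon stood well below it, and the difference was -2.10 ± 0.14 (edgeR, adjusted p = 4.61e-22). The translocator protein gene tspo (ENSDARG00000026655), whose product sits in the outer mitochondrial membrane, averaged 17.0 ± 2.65 CPM in mon and 33.9 ± 2.02 CPM in siblings at 30 hpf (difference -0.75 ± 0.14, edgeR, adjusted p = 0.000597). These 3 genes were the called members among 35 tested genes of red cell enzymes and maturation, and all 3 differences were negative (0.262% of all genes).

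**Figure D2:**
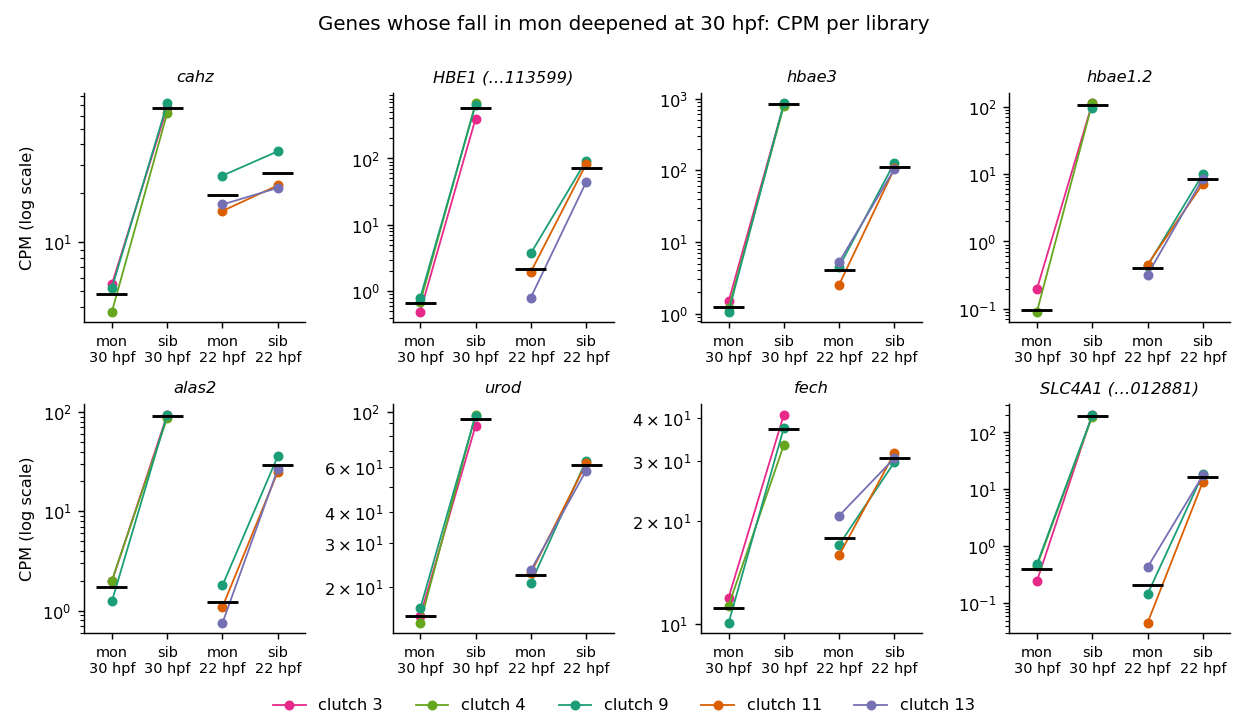
CPM on a log axis for 8 genes whose fall in mon deepened, with mon left of siblings, first at 30 hpf and then at 22 hpf, a line joining the 2 libraries of a clutch and black bars at the mean of 3 libraries. For cahz the lines are steep at 30 hpf and shallow at 22 hpf, whereas for hbae3 they are steep at both stages and steeper at 30 hpf. The 1 library at 0 CPM (hbae1.2, mon of clutch 9 at 30 hpf) has no place on a log axis and is not drawn.

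The 4 heme synthesis genes called for the difference did not share one course. Of 31 tested, 15 were lower in mon at 30 hpf (1.56% of all genes) and 9 at 22 hpf (0.845% of all genes). None was higher at either stage. The difference was negative for 3, alas2, urod and fech, and positive for 1, cpox (0.262% and 0.22% of all genes). The median log2 difference of the list was -0.259, against 0.0029 over all genes tested. Its unadjusted p was under 0.05 (edgeR) for 18 of the 31, and for 1678 of all 21778 genes tested. Uroporphyrinogen decarboxylase, urod (ENSDARG00000006818), which acts midway in the pathway, had 15.4, 14.4 and 16.5 CPM in mon and 87.8, 97.3 and 96.5 CPM in siblings at 30 hpf. Earlier, at 22 hpf, it had 20.8, 22.8 and 23.4 CPM in mon and 63.8, 62.2 and 58.3 CPM in siblings. The levels in mon were lower, and those in siblings higher, at the later stage, and no libraries of mon and siblings overlapped. Its effect was -2.60 ± 0.07 at 30 hpf and -1.46 ± 0.07 at 22 hpf, with a difference of -1.14 ± 0.10 (edgeR, adjusted p = 1.42e-15). Ferrochelatase, fech (ENSDARG00000003462), which inserts the iron, had 11.9, 11.3 and 10.1 CPM in mon and 40.9, 33.4 and 37.5 CPM in siblings at 30 hpf, against 17.0, 15.9 and 20.7 CPM in mon and 29.7, 31.6 and 30.5 CPM in siblings at 22 hpf. The 2 groups were separate at both stages, and the difference was -0.96 ± 0.13 (edgeR, adjusted p = 1.07e-07).

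The rate-limiting erythroid enzyme of heme synthesis, alas2 (ENSDARG00000038643), had 1.97, 2.00 and 1.24 CPM in mon and 93.7, 87.1 and 94.1 CPM in siblings at 30 hpf. The levels at 22 hpf were 1.79, 1.09 and 0.752 CPM in mon and 35.9, 25.0 and 26.6 CPM in siblings. Mon libraries were low at both stages, and the difference was -1.15 ± 0.24 (edgeR, adjusted p = 0.00388). Coproporphyrinogen oxidase, cpox (ENSDARG00000062025), the next enzyme after urod, went the other way. It had 13.8, 12.5 and 14.0 CPM in mon and 44.0, 41.8 and 39.4 CPM in siblings at 30 hpf, and 8.33, 7.90 and 10.6 CPM in mon and 40.2, 41.1 and 48.0 CPM in siblings at 22 hpf. Sibling levels of the stages overlapped, while every mon library of 30 hpf exceeded every mon library of 22 hpf. The effect was -1.63 ± 0.09 at 30 hpf and -2.27 ± 0.09 at 22 hpf (difference 0.64 ± 0.13, edgeR, adjusted p = 0.00128). The call of alas2 was lost with DESeq2 and limma-voom and without clutch 9 at 22 hpf, clutch 9 at 30 hpf or clutch 9 at both stages (adjusted p between 0.0527 and 0.583), with adjusted p from 0.000514 to 0.583 over the 13 alternatives, whereas urod, fech and cpox were called under all 13. Without the block urod and fech stayed called (edgeR, adjusted p = 8.47e-05 and 0.0161), but cpox (edgeR, adjusted p = 0.520) and alas2 did not.

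Iron handling held 1 positive and 1 negative difference among 31 tested genes (0.22% and 0.262% of all genes). The median log2 difference of the list was 0.094. Its unadjusted p was under 0.05 (edgeR) for 6 of the 31, and for 1678 of all 21778 genes tested. The gene tfr1a (ENSDARG00000101322), the transferrin receptor for iron uptake by red cell precursors, was strongly lower in mon at both stages, and less so at the later one. It had 9.70, 10.3 and 8.38 CPM in mon and 98.7, 104 and 106 CPM in siblings at 30 hpf. At 22 hpf it had 2.86, 3.77 and 3.76 CPM in mon and 73.7, 78.8 and 70.26 CPM in siblings. Every mon library of 30 hpf exceeded every mon library of 22 hpf. The effect was -3.44 ± 0.08 at 30 hpf and -4.43 ± 0.09 at 22 hpf, a difference of 0.98 ± 0.13 (edgeR, adjusted p = 1.36e-07). The ferritin heavy chain fth1a (ENSDARG00000015551), the iron store, differed in the opposite direction and by little. It averaged 303 ± 17.2 CPM in mon and 403 ± 28.3 CPM in siblings at 30 hpf, and 353 ± 30.2 CPM in mon and 387 ± 45.6 CPM in siblings at 22 hpf (difference -0.28 ± 0.05, edgeR, adjusted p = 0.000107). Without the block fth1a was not called. The mitochondrial iron importer slc25a37 (ENSDARG00000073743) had -1.92 ± 0.12 at 30 hpf and -1.31 ± 0.12 at 22 hpf, and the difference of -0.61 ± 0.17 missed the threshold (edgeR, adjusted p = 0.188).

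Membrane genes of red cells held differences in both directions, 3 positive and 3 negative among 26 tested (0.22% and 0.262% of all genes). The anion exchanger band 3 gene SLC4A1 (ENSDARG00000012881) had 0.246, 0.455 and 0.488 CPM in mon and 206, 189.8 and 199 CPM in siblings at 30 hpf. The 22 hpf libraries had 0.145, 0.0454 and 0.430 CPM in mon and 18.4, 13.5 and 17.6 CPM in siblings. At 30 hpf mon libraries together held 26 reads and siblings 12354, at 22 hpf mon held 12 and siblings 977, and the difference was -2.58 ± 0.57 (edgeR, adjusted p = 0.00757). Its call was lost with DESeq2 and limma-voom and without clutch 13 at 22 hpf (adjusted p between 0.0534 and 0.759), with adjusted p from 0.00247 to 0.759 over the 13 alternatives. The other copy of that symbol, ENSDARG00000024560, had a difference of 0.33 ± 0.25 (edgeR, adjusted p = 0.827).

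Beta spectrin, sptb (ENSDARG00000030490), the main strand of the red cell skeleton, was one of 2 membrane genes whose fall lessened. It had 167, 183 and 171 CPM in mon and 289, 329.7 and 301 CPM in siblings at 30 hpf, and 27.12, 18.9 and 16.6 CPM in mon and 68.2, 53.8 and 51.7 CPM in siblings at 22 hpf. Both groups stood higher at the later stage and remained separate. Its effect was -0.82 ± 0.04 at 30 hpf and -1.48 ± 0.06 at 22 hpf (difference 0.66 ± 0.07, edgeR, adjusted p = 1.6e-11). The water channel AQP1 (ENSDARG00000023713) had 30.7, 30.6 and 34.4 CPM in mon and 45.5, 49.8 and 44.9 CPM in siblings at 30 hpf. It had 3.05, 2.41 and 1.5 CPM in mon and 9.26, 7.86 and 4.31 CPM in siblings at 22 hpf. The groups did not overlap at either stage, and the difference was 1.07 ± 0.17 (edgeR, adjusted p = 1.49e-05). Without the block neither sptb nor AQP1 was called. In the mon libraries of 30 hpf SLC4A1 (ENSDARG00000012881) averaged 0.396 ± 0.131 CPM, far below sptb and AQP1. Which cells of the whole embryos held the sptb and AQP1 RNA was not tested. Ankyrin, ANK1 (ENSDARG00000059093), which anchors spectrin to band 3, was called at 30 hpf alone with -0.70 ± 0.07 there and -0.17 ± 0.09 at 22 hpf (difference -0.53 ± 0.11, edgeR, adjusted p = 0.00297). Its call was lost with DESeq2 and without clutch 11 at 22 hpf or clutch 4 at 30 hpf (adjusted p between 0.0702 and 0.0782), and its adjusted p ran from 0.000353 to 0.0782 over the 13 alternatives. Protein 4.1, epb41b (ENSDARG00000029019), had effects of -7.04 ± 0.23 at 30 hpf and -5.54 ± 0.25 at 22 hpf, and its difference of -1.49 ± 0.59 missed the threshold (edgeR, adjusted p = 0.402).

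**Figure D3:**
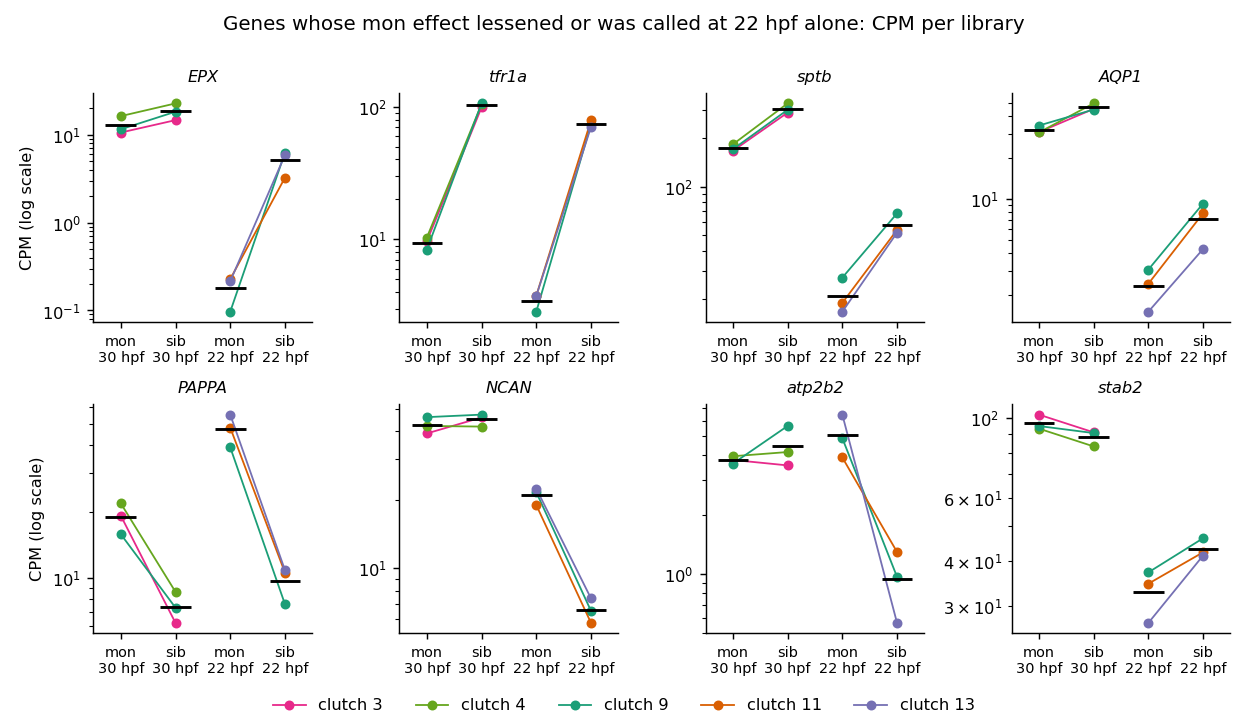
CPM on a log axis for 8 genes whose mon effect lessened (EPX, tfr1a, sptb, AQP1, PAPPA) or was called at 22 hpf alone (NCAN, atp2b2, stab2), laid out as for the deepened genes. The lines slope less, or hardly at all, at 30 hpf and more steeply at 22 hpf, and for stab2 the slope turns round between the stages.

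Most of the erythroid regulators tested missed the threshold for the difference. Of 27 regulators tested, 13 were lower and 1 was higher in mon at 30 hpf (1.56% and 1.53% of all genes). At 22 hpf 13 were lower and none was higher (0.845% and 0.634% of all genes). The difference was called for 4 by edgeR, beside 0.482% of all genes, and for 1 with DESeq2 and 3 with limma-voom. Its unadjusted p was under 0.05 (edgeR) for 13 of the 27, and for 1678 of all 21778 genes tested. The master regulator gata1a (ENSDARG00000013477) had 0.640, 0.455 and 0.133 CPM in mon and 8.05, 9.98 and 8.87 CPM in siblings at 30 hpf, and 0.533, 0.363 and 0.161 CPM in mon and 7.28, 5.97 and 6.42 CPM in siblings at 22 hpf. The groups were separate at both stages, and the difference of -0.28 ± 0.51 missed the threshold (edgeR, adjusted p = 0.960). For klf1 (ENSDARG00000017400), an activator of globin genes, the difference was -2.16 ± 0.69 and missed it too (edgeR, adjusted p = 0.209), with 0.247 ± 0.0258 CPM in mon and 8.67 ± 0.778 CPM in siblings at 30 hpf. The hematopoietic regulators tal1 (ENSDARG00000019930) and gfi1b (ENSDARG00000079947) had differences of -0.59 ± 0.16 and -0.26 ± 0.32 (edgeR, adjusted p = 0.0751 and 0.927).

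Called among the regulators were hemgn, znfl2a, jak2a and trim33. Hemogen, hemgn (ENSDARG00000096667), a nuclear protein of blood cells, averaged 1.28 ± 0.586 CPM in mon and 12 ± 0.725 CPM in siblings at 30 hpf, and 0.833 ± 0.316 CPM in mon and 2.60 ± 0.523 CPM in siblings at 22 hpf (difference -1.58 ± 0.40, edgeR, adjusted p = 0.0437). For znfl2a (ENSDARG00000008333) the effect was -1.64 ± 0.13 at 30 hpf and -0.89 ± 0.11 at 22 hpf (difference -0.75 ± 0.17, edgeR, adjusted p = 0.010). The kinase jak2a (ENSDARG00000104808), which acts below the erythropoietin receptor, was called at 30 hpf alone (difference -0.39 ± 0.09, edgeR, adjusted p = 0.0192). Calls were lost for hemgn with the stricter filter, DESeq2 and limma-voom and without clutch 9 at 22 hpf, clutch 13 at 22 hpf, clutch 3 at 30 hpf or clutch 4 at 30 hpf (adjusted p between 0.0594 and 0.420), for znfl2a with DESeq2 and without clutch 13 at 22 hpf, clutch 3 at 30 hpf or clutch 4 at 30 hpf (adjusted p between 0.111 and 0.198) and for jak2a with DESeq2 and without clutch 11 at 22 hpf, clutch 13 at 22 hpf, clutch 9 at 30 hpf or clutch 9 at both stages (adjusted p between 0.0691 and 0.363). Over the 13 alternatives the adjusted p ran from 0.00289 to 0.420 for hemgn, from 0.000531 to 0.198 for znfl2a and from 0.00367 to 0.363 for jak2a. The gene drl (ENSDARG00000078004), whose promoter drives the reporter used for sorting, had -3.31 ± 0.22 at 30 hpf and -2.27 ± 0.20 at 22 hpf, a difference of -1.04 ± 0.32 that missed the threshold (edgeR, adjusted p = 0.163).

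Of all genes with a lessened effect, the peroxidase gene EPX (ENSDARG00000019521) changed most. The symbol is that of mammalian eosinophil peroxidase, an enzyme of granulocytes. It had 10.5, 16.2 and 11.5 CPM in mon and 14.6, 22.6 and 18.2 CPM in siblings at 30 hpf, where the groups overlapped. Earlier, at 22 hpf, it had 0.0968, 0.227 and 0.215 CPM in mon and 6.21, 3.23 and 5.85 CPM in siblings. Mon libraries together held 829 reads at 30 hpf and 11 at 22 hpf. The effect was -0.54 ± 0.13 at 30 hpf and -4.76 ± 0.30 at 22 hpf, a difference of 4.22 ± 0.35 (edgeR, adjusted p = 1.53e-16), and it was called under all 13 alternatives and without the block. The zebrafish granulocyte peroxidase is known as mpx, a name that matched no ID in the name tables, so whether this ID is that gene was not settled here. The list of granulocyte and macrophage genes holds neither this ID nor an ID for mpx. It had no member called for the difference among 43 tested (edgeR; 5 at an unadjusted p under 0.05; 0 with DESeq2 and 0 with limma-voom). Its median log2 difference was 0.007, against 0.0029 over all genes tested, and a count of 0 in a list of this size is near the 0.482% of all genes. Over all 21778 genes tested, 1678 had an unadjusted p under 0.05 (edgeR). The myeloid regulator SPI1 (ENSDARG00000000767) had a difference of -0.01 ± 0.32 (edgeR, adjusted p = 0.999).

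Further genes with a lessened effect lay in other lists or in none. The sodium pump subunit atp1a1a.2 (ENSDARG00000007739) averaged 76.7 ± 19.6 CPM in mon and 115 ± 10.5 CPM in siblings at 30 hpf, and 3.82 ± 1.92 CPM in mon and 11.1 ± 4.55 CPM in siblings at 22 hpf (difference 0.94 ± 0.14, edgeR, adjusted p = 1.1e-05). The protease PAPPA (ENSDARG00000101090), which cleaves binding proteins of insulin-like growth factors, was higher in mon at both stages. It had 19.2, 21.8 and 15.8 CPM in mon and 6.23, 8.62 and 7.30 CPM in siblings at 30 hpf. The levels at 22 hpf were 39.2, 48.2 and 55.2 CPM in mon and 7.58, 10.5 and 10.8 CPM in siblings. The groups did not overlap at either stage, and the difference of the rise was -0.94 ± 0.15 (edgeR, adjusted p = 7.53e-06). Likewise PTPRD (ENSDARG00000104937), a receptor phosphatase of neurons, was raised by 0.56 ± 0.07 at 30 hpf and by 1.43 ± 0.08 at 22 hpf (difference -0.87 ± 0.10, edgeR, adjusted p = 1.29e-09). The fibrillar collagen chain col5a1 (ENSDARG00000012593) was raised by 0.16 ± 0.03 at 30 hpf and by 0.38 ± 0.03 at 22 hpf (difference -0.22 ± 0.04, edgeR, adjusted p = 0.00208). The col5a1 call was lost without clutch 9 at 22 hpf or clutch 9 at both stages (adjusted p between 0.0574 and 0.159), and its adjusted p ran from 2.76e-05 to 0.159 over the 13 alternatives. Dropping the block left PTPRD called (edgeR, adjusted p = 0.00672), but not atp1a1a.2, PAPPA or col5a1.

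A few genes best known from neurons had a larger rise in mon at 22 hpf than at 30 hpf. Of 99 neuronal and synaptic genes tested, 2 were higher and 3 lower in mon at 30 hpf (1.53% and 1.56% of all genes), and 4 were higher and none lower at 22 hpf (0.634% and 0.845% of all genes). The difference was negative for 3, NCAN, PTPRD and atp2b2, and positive for none (0.262% and 0.22% of all genes). The median log2 difference of the list was -0.101, against 0.0029 over all genes. Neurocan, NCAN (ENSDARG00000005783), a proteoglycan of the brain matrix, had 39.0, 42.0 and 45.9 CPM in mon and 45.8, 41.8 and 47.1 CPM in siblings at 30 hpf. At 22 hpf it had 21.5, 18.9 and 22.3 CPM in mon and 6.52, 5.77 and 7.39 CPM in siblings. The groups overlapped at 30 hpf, where both were higher, and were wide apart at 22 hpf. The effect was -0.09 ± 0.07 at 30 hpf and 1.68 ± 0.10 at 22 hpf, a difference of -1.76 ± 0.13 (edgeR, adjusted p = 5.35e-20). The plasma membrane calcium pump atp2b2 (ENSDARG00000063433) had 3.79, 3.96 and 3.63 CPM in mon and 3.56, 4.16 and 5.64 CPM in siblings at 30 hpf, and the groups overlapped. The 22 hpf libraries had 4.89, 3.90 and 6.44 CPM in mon and 0.967, 1.29 and 0.565 CPM in siblings, where they were separate (difference -2.61 ± 0.35, edgeR, adjusted p = 1.36e-07).

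Further genes raised in mon at 22 hpf alone included ERBB4 (ENSDARG00000090408), a neuregulin receptor, with 17.1 ± 1.21 CPM in mon and 17.3 ± 2.01 CPM in siblings at 30 hpf and 1.44 ± 0.337 CPM in mon and 0.387 ± 0.148 CPM in siblings at 22 hpf. Its difference was -1.87 ± 0.35 (edgeR, adjusted p = 0.000517). The homeobox gene PBX3 (ENSDARG00000013615) had a difference of -0.66 ± 0.13 and the neural gene brinp1 (ENSDARG00000078302) one of -1.65 ± 0.35 (edgeR, adjusted p = 0.000541 and 0.00375). For srgap3 (ENSDARG00000060309) it was -0.32 ± 0.07 (edgeR, adjusted p = 0.00786), and the call was lost with DESeq2 and without clutch 9 at 22 hpf, clutch 3 at 30 hpf, clutch 4 at 30 hpf or clutch 9 at both stages (adjusted p between 0.0531 and 0.0879; 0.00364 to 0.0879 over the 13 alternatives). The lens water channel MIP (ENSDARG00000013963) had 0.872, 0.363 and 1.07 CPM in mon and 0.255, 0.149 and 0.154 CPM in siblings at 22 hpf, from 46 and 11 reads. At 30 hpf it averaged 12.9 ± 4.99 CPM in mon and 13.8 ± 1.57 CPM in siblings (difference -2.13 ± 0.48, edgeR, adjusted p = 0.00826). At 22 hpf the summed lens markers, which include this gene, were 2.58 to 2.81 CPM in mon and 1.24 to 2.26 CPM in siblings, and their part in other results was not tested. Calls were lost for ERBB4 with limma-voom and without clutch 13 at 22 hpf (adjusted p between 0.0536 and 0.0975), for brinp1 with DESeq2 and without clutch 13 at 22 hpf or clutch 4 at 30 hpf (adjusted p between 0.0504 and 0.0814) and for MIP with limma-voom and without clutch 13 at 22 hpf or clutch 4 at 30 hpf (adjusted p between 0.0504 and 0.285). Adjusted p-values over the 13 alternatives ran from 6.67e-05 to 0.0975 for ERBB4, from 0.00172 to 0.0814 for brinp1 and from 0.00166 to 0.285 for MIP.

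The genes adgrg11 (ENSDARG00000041413), an adhesion-type receptor, and bmf2 (ENSDARG00000041414), a cell death regulator, were called higher in mon at 22 hpf but were not called for the difference. At 30 hpf adgrg11 was called higher as well, and bmf2 was not. The effect of adgrg11 was 2.55 ± 0.59 at 30 hpf and 6.05 ± 0.46 at 22 hpf. The adgrg11 gene had 0.542, 0.410 and 0.842 CPM in mon and 0.133, 0.10 and 0.0504 CPM in siblings at 30 hpf, against 5.18, 5.68 and 6.98 CPM in mon and 0, 0.0995 and 0.154 CPM in siblings at 22 hpf. Its groups were separate at both stages, and the difference was -3.50 ± 1.04 (edgeR, adjusted p = 0.127), with 6 sibling reads at 30 hpf and 5 at 22 hpf behind it. For bmf2 the effect was 0.62 ± 0.40 at 30 hpf and 1.88 ± 0.31 at 22 hpf, a difference of -1.26 ± 0.52 (edgeR, adjusted p = 0.440). For both the SE exceeded that of most called genes, whose median SE was 0.139.

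Genes lower in mon at 22 hpf alone included 1 of the endothelial list and several of transport and matrix. The scavenger receptor stab2 (ENSDARG00000045748), made by venous and lymphatic endothelium, had 102, 93.3 and 94.9 CPM in mon and 91.2, 83.3 and 90.7 CPM in siblings at 30 hpf. In the 22 hpf libraries the values were 37.3, 34.7 and 27.0 CPM in mon and 46.4, 42.4 and 41.5 CPM in siblings. Every mon library lay above every sibling library at 30 hpf, where the effect missed the threshold, and below every one at 22 hpf. The difference was 0.53 ± 0.08 (edgeR, adjusted p = 7.53e-06). It was the 1 gene that edgeR called among 51 tested of the endothelial list (1 with DESeq2 and 2 with limma-voom), whose median log2 difference was 0.05. Beside 0.482% of all genes, a count of 1 call does not by itself set a list of this size apart. The unadjusted p of the difference was under 0.05 (edgeR) for 13 of the 51, and for 1678 of all 21778 genes tested. The endothelial cadherin cdh5 (ENSDARG00000075549) had 0.00 ± 0.06 at 30 hpf and -0.19 ± 0.06 at 22 hpf (difference 0.19 ± 0.09, edgeR, adjusted p = 0.556). The summed endothelial markers were 166 to 179 CPM in mon and 161 to 173 CPM in siblings at 30 hpf, and 135 to 154 CPM in mon and 152 to 162 CPM in siblings at 22 hpf.

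The anion exchanger SLC4A2 (ENSDARG00000028173) averaged 64.5 ± 4.93 CPM in mon and 65.6 ± 4.91 CPM in siblings at 30 hpf, and 38.3 ± 7.85 CPM in mon and 56.5 ± 7.5 CPM in siblings at 22 hpf (difference 0.54 ± 0.08, edgeR, adjusted p = 7.53e-06). The glucose transporter SLC2A1 (ENSDARG00000001437) had 20.8, 19.7 and 17.3 CPM in mon and 18.3, 15.0 and 17.9 CPM in siblings at 30 hpf, with the groups overlapping. Earlier, at 22 hpf, it had 29.2, 27.8 and 32.1 CPM in mon and 35.8, 39.4 and 48.7 CPM in siblings. Its difference of 0.64 ± 0.12 (edgeR, adjusted p = 0.000583) was the only call in both the glycolysis and the hypoxia lists, and it also counts among the red cell membrane genes. The gene vap (ENSDARG00000088975) averaged 2.23 ± 0.237 CPM in mon and 2.95 ± 0.803 CPM in siblings at 30 hpf, and 0.386 ± 0.139 CPM in mon and 2.64 ± 0.772 CPM in siblings at 22 hpf (difference 2.34 ± 0.45, edgeR, adjusted p = 0.000879). The matrix-remodelling gene MXRA5 (ENSDARG00000074815) differed by 0.52 ± 0.09 (edgeR, adjusted p = 0.000361). Without the block none of stab2, SLC4A2, SLC2A1, vap and MXRA5 was called, with adjusted p between 0.106 and 1.00 (edgeR).

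Matrix and fin fold genes held 8 edgeR calls among 111 tested, with 5 in DESeq2 and 8 in limma-voom. The edgeR calls were 3 positive (FN1, SERPINH1 and THBS3) and 5 negative (and3, TNC, P4HA1, col5a1 and col1a1a), beside 0.22% and 0.262% of all genes. The fibrillar collagen col1a1a (ENSDARG00000012405) had a difference of -0.17 ± 0.04 and the thrombospondin THBS3 (ENSDARG00000077641) one of 0.74 ± 0.18 (edgeR, adjusted p = 0.0307 and 0.0272), and calls were lost for col1a1a with library totals alone, DESeq2 and limma-voom and without clutch 11 at 22 hpf, clutch 3 at 30 hpf or clutch 4 at 30 hpf (adjusted p between 0.0717 and 0.797) and for THBS3 with DESeq2 and without clutch 9 at 22 hpf, clutch 13 at 22 hpf, clutch 3 at 30 hpf, clutch 9 at 30 hpf or clutch 9 at both stages (adjusted p between 0.0608 and 0.375). Fibronectin, FN1 (ENSDARG00000006526), which links cells to the matrix, had the smallest p of all genes called at 30 hpf alone. It had 222, 192 and 196 CPM in mon and 96.8, 84.4 and 90.6 CPM in siblings at 30 hpf. The levels at 22 hpf were 507, 584 and 599 CPM in mon and 499.8, 575 and 523 CPM in siblings, where the groups overlapped. Both groups were lower at the later stage, siblings more so, and mon lay above siblings in each clutch. The effect was 1.16 ± 0.04 at 30 hpf and 0.08 ± 0.03 at 22 hpf, a difference of 1.09 ± 0.05 (edgeR, adjusted p = 2.64e-31). The other copy of that symbol, ENSDARG00000019815, had a difference of 0.06 (edgeR, adjusted p = 0.841).

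The fin fold gene and3 (ENSDARG00000056873), an actinodin of the fibers that stiffen the embryonic fin fold, had 0.690, 0.592 and 0.887 CPM in mon and 6.85, 7.12 and 4.43 CPM in siblings at 30 hpf, with every mon library below every sibling library. At 22 hpf only 20 reads were counted in mon and 4 in siblings. The difference was -5.24 ± 0.78 (edgeR, adjusted p = 1.84e-06), and its size rests on those few reads. Tenascin C, TNC (ENSDARG00000078362), a matrix glycoprotein, was called in opposite directions. It had 39.7, 40.8 and 35.9 CPM in mon and 49.0, 52.2 and 54.2 CPM in siblings at 30 hpf, against 21.5, 18.4 and 14.7 CPM in mon and 13.3, 9.90 and 9.85 CPM in siblings at 22 hpf. Mon was below siblings in each clutch at 30 hpf and above siblings in each at 22 hpf. The effect was -0.42 ± 0.07 at 30 hpf and 0.72 ± 0.09 at 22 hpf (difference -1.14 ± 0.12, edgeR, adjusted p = 1.11e-11). The second gene with opposite calls, si:dkeyp-110a12.4 (ENSDARG00000087784), was higher in mon at 30 hpf and lower at 22 hpf (difference 0.94 ± 0.16, edgeR, adjusted p = 7.28e-05). The collagen prolyl hydroxylase P4HA1 (ENSDARG00000071082) was called lower at 30 hpf alone, with a difference of -0.47 ± 0.09 (edgeR, adjusted p = 0.00128). Its call was lost with DESeq2 and without clutch 13 at 22 hpf (adjusted p between 0.0803 and 0.0955), and its adjusted p ran from 4.55e-05 to 0.0955 over the 13 alternatives.

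**Figure D4:**
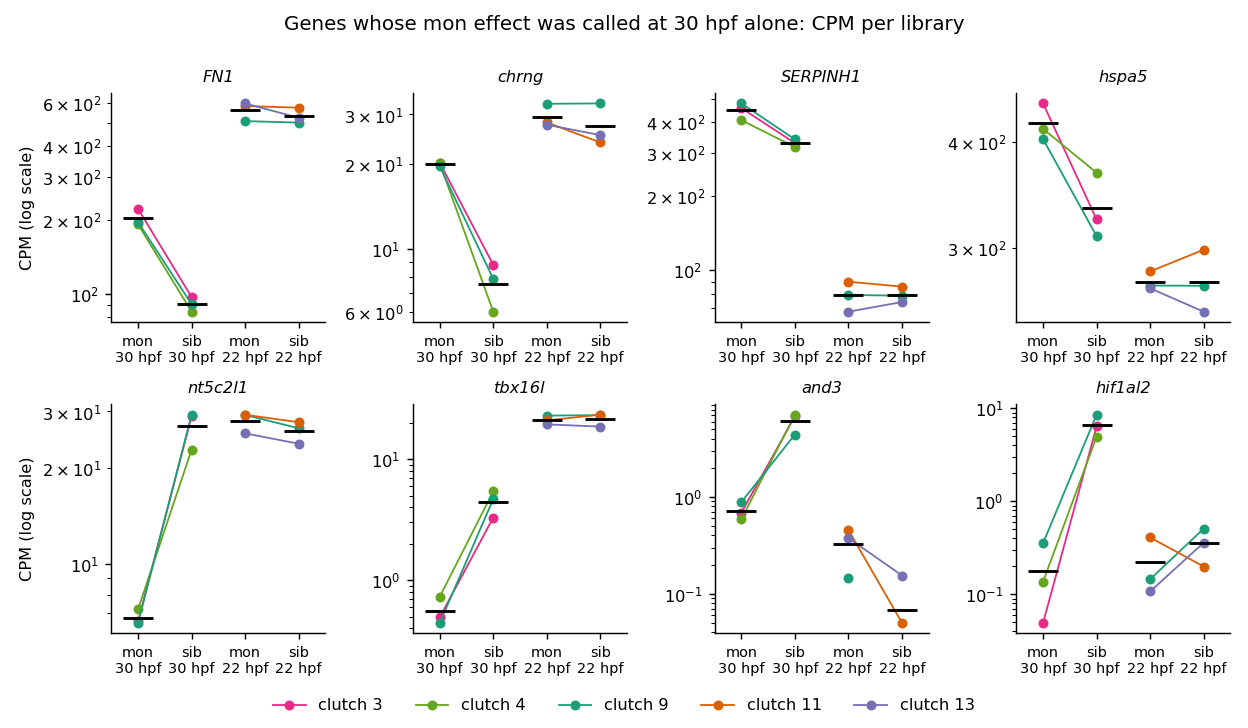
CPM on a log axis for 8 genes whose mon effect was called at 30 hpf alone, laid out as for the deepened genes. FN1, chrng, SERPINH1 and hspa5 lie higher in mon at 30 hpf, and nt5c2l1, tbx16l, and3 and hif1al2 lie lower. The 1 library at 0 CPM (and3, siblings of clutch 9 at 22 hpf) is not drawn.

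Muscle and mesoderm each held 1 call by edgeR, a count that beside 0.482% of all genes does not by itself set lists of their sizes apart. The unadjusted p of the difference was under 0.05 (edgeR) for 16 of 86 muscle genes and 4 of 61 presomitic genes. Over all 21778 genes tested it was under 0.05 for 1678. The embryonic acetylcholine receptor subunit chrng (ENSDARG00000086647) had 20.2, 20.2 and 19.7 CPM in mon and 8.81, 6.02 and 7.86 CPM in siblings at 30 hpf. At 22 hpf it had 32.7, 28.1 and 27.6 CPM in mon and 32.8, 23.9 and 25.4 CPM in siblings. The groups were far apart at 30 hpf, where siblings were lower than at 22 hpf, and overlapped at 22 hpf. Its difference was 1.29 ± 0.14 (edgeR, adjusted p = 3.12e-11), and no other of 86 muscle genes tested was called by edgeR. The T-box factor tbx16l (ENSDARG00000006939), known from presomitic mesoderm, had 0.493, 0.729 and 0.443 CPM in mon and 3.29, 5.41 and 4.69 CPM in siblings at 30 hpf. The 22 hpf libraries had 22.9, 20.9 and 19.4 CPM in mon and 23.1, 23.3 and 18.6 CPM in siblings. All libraries of 30 hpf were below those of 22 hpf, and mon was below siblings at 30 hpf without overlap. The difference was -2.96 ± 0.26 (edgeR, adjusted p = 2.04e-15), and it was the 1 call of edgeR among 61 presomitic genes tested (1 with DESeq2 and 2 with limma-voom). Both genes were called under all 13 alternatives and without the block.

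Among further genes lower in mon at 30 hpf alone, hif1al2 (ENSDARG00000044550), named for its likeness to the hypoxia-inducible factor, had 0.0493, 0.137 and 0.355 CPM in mon and 6.41, 4.96 and 8.56 CPM in siblings at 30 hpf. At 22 hpf it averaged 0.220 ± 0.164 CPM in mon and 0.356 ± 0.155 CPM in siblings, near the bottom of what was counted. Its difference was -4.52 ± 0.79 (edgeR, adjusted p = 0.000111), and the call was lost without clutch 11 at 22 hpf (edgeR, adjusted p = 0.212, against 4.31e-06 to 0.212 over the 13 alternatives). The keratin krt91 (ENSDARG00000036830) and the Rh blood group gene RHCE (ENSDARG00000002194) had differences of -0.38 ± 0.09 and -2.16 ± 0.55 (edgeR, adjusted p = 0.0222 and 0.0417). Their calls were lost in 5 and 9 of the 13 alternatives, for krt91 with DESeq2 and limma-voom and without clutch 13 at 22 hpf, clutch 3 at 30 hpf or clutch 4 at 30 hpf (adjusted p between 0.123 and 0.313) and for RHCE with the stricter filter, DESeq2 and limma-voom and without clutch 9 at 22 hpf, clutch 13 at 22 hpf, clutch 3 at 30 hpf, clutch 4 at 30 hpf, clutch 9 at 30 hpf or clutch 9 at both stages (adjusted p between 0.0511 and 0.428). Over the 13 alternatives the adjusted p ran from 0.000910 to 0.313 for krt91 and from 0.0171 to 0.428 for RHCE.

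Among the lists, genes of heat shock and the unfolded protein response had the most positive differences called by edgeR. The list holds chaperones and, beside them, genes of other roles, such as the transcription factor atf3 and the asparagine synthetase asns. Of 41 tested, 15 were higher in mon at 30 hpf, asns among them, and none was lower (1.53% and 1.56% of all genes). At 22 hpf 1 was higher, atf3, and none was lower (0.634% and 0.845% of all genes). The difference was called positive for 6, all chaperones, and negative for none, beside 0.22% and 0.262% of all genes (edgeR; 3 with DESeq2 and 7 with limma-voom). The log2 effect was above 0 for 36 of the 41 at 30 hpf and for 26 at 22 hpf. The median log2 effect of the list was 0.19 at 30 hpf and 0.035 at 22 hpf, and the median difference was 0.121 (0.0029 over all genes). The 6 called differences lay between 0.20 and 0.68.

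The collagen chaperone SERPINH1 (ENSDARG00000019949) had 457, 409 and 478 CPM in mon and 329, 317 and 341 CPM in siblings at 30 hpf, and the groups overlapped only at the earlier stage. In the 22 hpf libraries the values were 79.5, 89.9 and 67.9 CPM in mon and 78.9, 85.9 and 74.4 CPM in siblings. Its difference was 0.46 ± 0.06 (edgeR, adjusted p = 5.79e-09), and it also counts among the matrix genes. BiP, hspa5 (ENSDARG00000103846), the main chaperone of the endoplasmic reticulum, had 444, 415 and 403 CPM in mon and 324, 368 and 309.9 CPM in siblings at 30 hpf, again without overlap. It had 271, 282 and 269 CPM in mon and 271, 299 and 253 CPM in siblings at 22 hpf, where the groups overlapped (difference 0.33 ± 0.06, edgeR, adjusted p = 0.000541). Both were called under all 13 alternatives, and neither without the block (edgeR, adjusted p = 0.806 and 0.870). The differences were 0.29 ± 0.06 for hsp90b1 (ENSDARG00000003570), an endoplasmic reticulum form of Hsp90, 0.31 ± 0.07 for HSPA4 (ENSDARG00000004754), 0.68 ± 0.15 for the inducible hsp70.3 (ENSDARG00000021924) and 0.20 ± 0.05 for the calreticulin calr3b (ENSDARG00000102808). The inducible hsp70.3 had 51.0, 50.9 and 46.3 CPM in mon and 23.7, 25.2 and 28.9 CPM in siblings at 30 hpf, and 4.99, 7.99 and 10.7 CPM in mon and 5.09, 6.52 and 8.11 CPM in siblings at 22 hpf. Its groups overlapped only at 22 hpf. The other copies of the symbols HSPA4 (ENSDARG00000018989) and SERPINH1 (ENSDARG00000075954) had differences of -0.06 and 0.17 and missed the threshold (edgeR, adjusted p = 0.902 and 0.541).

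Calls were lost for hsp90b1 without clutch 13 at 22 hpf (adjusted p = 0.0702), for HSPA4 with DESeq2 and without clutch 9 at 30 hpf or clutch 9 at both stages (adjusted p between 0.0910 and 0.151), for hsp70.3 with DESeq2 and without clutch 9 at 22 hpf, clutch 3 at 30 hpf or clutch 4 at 30 hpf (adjusted p between 0.0631 and 0.0969) and for calr3b with DESeq2 and without clutch 11 at 22 hpf, clutch 3 at 30 hpf or clutch 4 at 30 hpf (adjusted p between 0.214 and 0.578). Over the 13 alternatives the adjusted p ran from 0.000159 to 0.0702 for hsp90b1, from 0.00122 to 0.151 for HSPA4, from 0.000554 to 0.0969 for hsp70.3 and from 0.0106 to 0.578 for calr3b. None of hsp90b1, HSPA4, hsp70.3 and calr3b was called without the block.

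**Figure D5:**
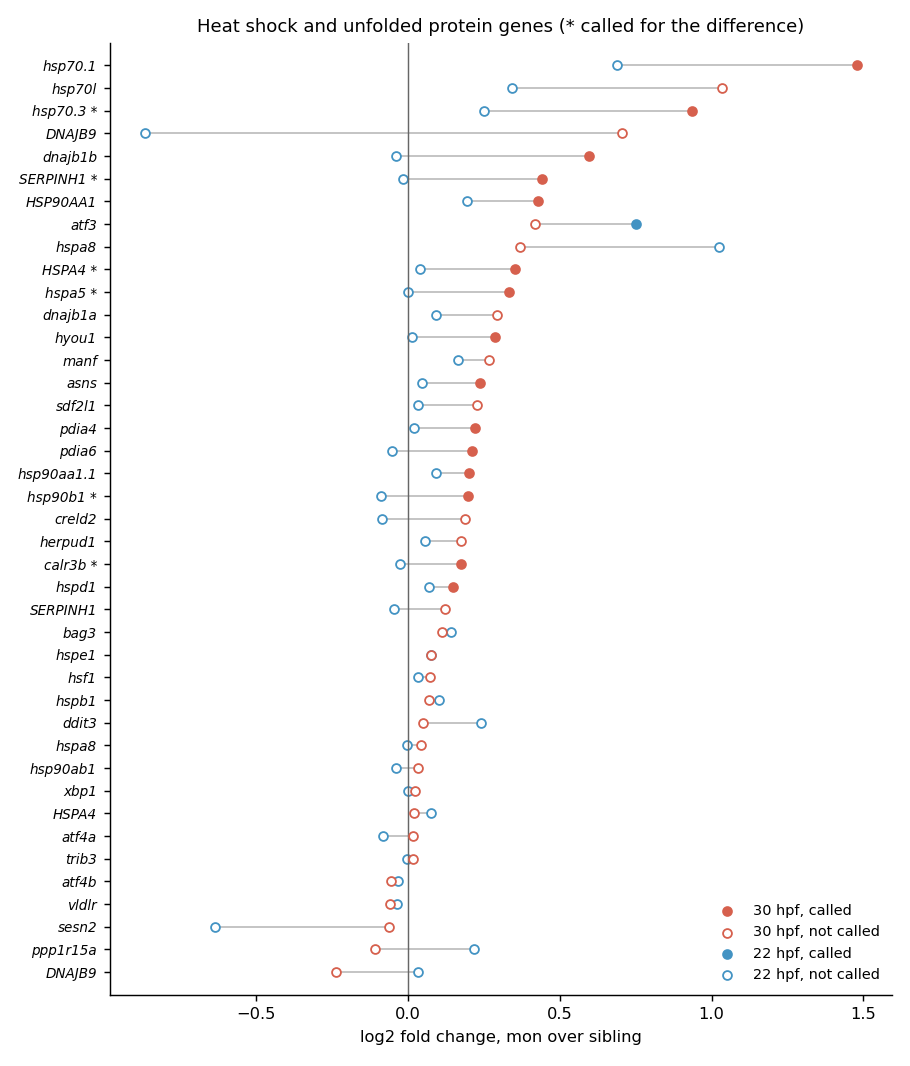
The mon over sibling log2 fold change of the 41 tested heat shock and unfolded protein genes at 30 hpf (red) and 22 hpf (blue), with filled points where the effect was called and a star where the difference was called. At 30 hpf the points run from -0.24 to 1.48 with 36 above 0, and at 22 hpf from -0.86 to 1.02 with 26 above 0.

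Other genes higher in mon at 30 hpf alone were frem3 (ENSDARG00000074677), a basement membrane gene (0.28 ± 0.05), il6st (ENSDARG00000104693), the shared receptor of interleukin-6 cytokines (0.44 ± 0.08), ABCF2 (ENSDARG00000038785) (0.32 ± 0.06) and the ciliary regulator FOXJ1 (ENSDARG00000101919) (0.57 ± 0.14), each given as the difference (edgeR, adjusted p = 8.5e-05, 0.000223, 0.000541 and 0.0211). For il6st the levels were 81.1, 97.2 and 95.8 CPM in mon and 54.3, 60.4 and 63.0 CPM in siblings at 30 hpf, and 57.1, 53.3 and 54.4 CPM in mon and 54.2, 47.0 and 44.5 CPM in siblings at 22 hpf. The groups were separate at 30 hpf and overlapped at 22 hpf. A subunit of the stress-responsive factor AP-1, JUNB (ENSDARG00000104773), was raised at both stages and more at 30 hpf, with 20.0 ± 0.530 CPM in mon and 7.01 ± 1.49 CPM in siblings there and 16.6 ± 4.77 CPM in mon and 9.15 ± 1.3 CPM in siblings at 22 hpf (difference 0.68 ± 0.17, edgeR, adjusted p = 0.0431). The serpin serpinb1l4 (ENSDARG00000096888) was likewise called higher at both stages. It had 3.5, 3.32 and 3.99 CPM in mon and 0.0890, 0.15 and 0.0504 CPM in siblings at 30 hpf, where siblings held 6 reads. At 22 hpf mon held 59 reads and siblings 17. The effect was 5.13 ± 0.49 at 30 hpf and 1.70 ± 0.48 at 22 hpf, a difference of 3.43 ± 0.79 (edgeR, adjusted p = 0.0104). Calls were lost for ABCF2 without clutch 4 at 30 hpf (adjusted p = 0.0726), for FOXJ1 with DESeq2 and without clutch 9 at 22 hpf, clutch 11 at 22 hpf, clutch 3 at 30 hpf, clutch 4 at 30 hpf or clutch 9 at both stages (adjusted p between 0.0696 and 0.309), for JUNB with the stricter filter, DESeq2 and limma-voom and without clutch 9 at 22 hpf, clutch 3 at 30 hpf, clutch 9 at 30 hpf or clutch 9 at both stages (adjusted p between 0.0516 and 0.559) and for serpinb1l4 with DESeq2 and without clutch 9 at 22 hpf, clutch 11 at 22 hpf, clutch 3 at 30 hpf, clutch 9 at 30 hpf or clutch 9 at both stages (adjusted p between 0.0515 and 0.306). Adjusted p-values over the 13 alternatives ran from 5.21e-05 to 0.0726 for ABCF2, from 0.00509 to 0.309 for FOXJ1, from 0.0174 to 0.559 for JUNB and from 0.00491 to 0.306 for serpinb1l4.

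In 5 genes neither stage passed the test by itself and the effects of the stages pointed opposite ways. They were the yolk apolipoprotein apoa4a (ENSDARG00000101160), zmym4.2 (ENSDARG00000035821), the adhesion gene MCAM (ENSDARG00000005368), the endothelin receptor EDNRB (ENSDARG00000089334) and si:ch211-136m16.8 (ENSDARG00000090767). For apoa4a the effect was 0.21 ± 0.06 at 30 hpf and -0.21 ± 0.07 at 22 hpf, a difference of 0.42 ± 0.09 (edgeR, adjusted p = 0.00748). None of the 5 was called under all 13 alternatives. The apoa4a call was lost with DESeq2 and without clutch 11 at 22 hpf or clutch 4 at 30 hpf (adjusted p between 0.0948 and 0.302), with adjusted p from 3.71e-05 to 0.302 over the 13.

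With 0.482% of all genes called, a count of 0 does not set a list of the following sizes apart. For the counts at an unadjusted p under 0.05 (edgeR), the value over all 21778 genes tested was 1678. No member was called for the difference among 82 tested genes of the respiratory chain and ATP synthase (edgeR; 1 at an unadjusted p under 0.05; 0 with DESeq2 and 0 with limma-voom), where the median log2 difference was 0.014. None of 33 pyrimidine and deoxynucleotide genes was called (edgeR; 5 at an unadjusted p under 0.05; 0 with DESeq2 and 1 with limma-voom), and none of 15 genes of coenzyme Q synthesis (edgeR; 0 at an unadjusted p under 0.05; 0 with DESeq2 and 0 with limma-voom). For the pyrimidine enzymes cad (ENSDARG00000041895), dhodh (ENSDARG00000051889) and umps (ENSDARG00000012215) the differences were 0.14 ± 0.04, -0.03 ± 0.16 and 0.19 ± 0.08 (edgeR, adjusted p = 0.0810, 0.996 and 0.440). Of 1418 list members tested in all, 47 were called (3.31%, against 0.482% of all genes), and 58 called genes were in no list. Lists overlap in a few genes and were written with results of these data known, so these counts are descriptions.

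At the threshold the last genes inside were plxna4 and DBX1, with adjusted p-values of 0.0440 and 0.0489, and the first outside were SLIT1 and SLC20A1, at 0.0508 and 0.0564 (edgeR).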

How the data were processed

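RNA of 12 pools of 30 whole embryos was sequenced from ribosome-depleted directional libraries. The authors deposited raw counts per gene. The submitters' processing notes name FastQC, cutadapt, TopHat2 2.0.11, Cufflinks 2.2.1, HTSeq and GRCz11 without roles; for annotation release and strand setting the sources used here give nothing. Every column carried a sample (0 without one), and 0 lines named no gene. Symbols come from the supplied name tables, where capitals mark an orthologue's symbol that several copies may share. A value belongs to the ID printed with it, and other copies are given only for HBE1, SLC4A1, FN1, HSPA4 and SERPINH1. TNC, AQP1 and ERBB4 are among further symbols held by several IDs. The fixed name mpx matched no ID. Totals ran from 18233320 to 23135676 counts.

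The counts were fitted with edgeR 4.0.16 (R 4.3.3; TMM, filterByExpr, robust quasi-likelihood) with 6 clutch-by-stage pair terms and a mon term per stage, leaving 4 residual degrees of freedom, and p-values were adjusted by Benjamini-Hochberg over 21778 of 32520 genes. The SE is the absolute log2 change over the root of F, an approximation. Called means adjusted p under 0.05. The block rests on mon and sibling pools of 1 clutch sharing parents. The 2 libraries of such a pair deviated together from their group means, with r of 0.509 to 0.69 over 10884 genes. Between clutches r was at most -0.193. Centring each group of 3 on its mean makes these values negative where those within pairs are positive, so they are no separate check. DESeq2 1.42.0, limma 3.58.1, other scalings and filters, and leave-outs were alternatives; in the blocked fit, leaving out 1 library leaves out its pair. Folds against a group with no read used a floor of 3 counts over the group. The code was tested on simulated data.

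Named genes were trim33, those of smallest p by direction and by class, up to 4 called per list, and a fixed set, of which 1 gene is not reported here. The members and lists were chosen with earlier results of these data known, and some list names were corrected after the files were read. The genes col1a1a, THBS3, hsp70.3, calr3b, atf3, asns, the uncalled HBE1 copies, ANK1, RHCE, FN1 ENSDARG00000019815, HSPA4 ENSDARG00000018989, SERPINH1 ENSDARG00000075954, hbae4, si:dkeyp-110a12.4, si:ch211-136m16.8, the genes at the threshold and those on the chromosome of trim33 fall outside that rule and were chosen after their values were seen.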

Additional observations from a re-analysis of the deposited data

Results flagged for a closer look

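The 30 hpf effect differed from the 22 hpf effect by the test of the difference itself in 105 genes, and each value here is that difference on the log2 scale (30 hpf effect minus 22 hpf effect, edgeR, adjusted p under 0.05). Among the genes whose effect deepened at 30 hpf it was -3.34 for cahz, -4.67 for HBE1 (ENSDARG00000113599), -1.14 for urod, -5.71 for hbae1.2, -3.28 for hbbe3 and -0.96 for fech. In the same group it was -5.23 for HBE1 (ENSDARG00000087390), -0.28 for fth1a, -4.58 for hbae3, -1.15 for alas2, -2.58 for SLC4A1 (ENSDARG00000012881) and -0.75 for znfl2a. It was also 3.43 for serpinb1l4, 0.68 for JUNB and -1.58 for hemgn. Among those whose effect lessened it was 4.22 for EPX, 0.66 for sptb, -0.87 for PTPRD, 0.98 for tfr1a, -0.94 for PAPPA and 0.94 for atp1a1a.2. In the same group it was 1.07 for AQP1, 0.64 for cpox and -0.22 for col5a1. For genes called at 30 hpf alone it was 1.09 for FN1, -2.10 for nt5c2l1, -2.96 for tbx16l, 1.29 for chrng, 0.46 for SERPINH1 and -5.24 for and3. In the same group it was 0.28 for frem3, -4.52 for hif1al2, 0.44 for il6st, 0.32 for ABCF2, 0.33 for hspa5 and -0.75 for tspo. It was also 0.29 for hsp90b1, -0.47 for P4HA1, 0.31 for HSPA4, -0.39 for jak2a, 0.57 for FOXJ1 and -0.38 for krt91. For genes called at 22 hpf alone it was -1.76 for NCAN, -2.61 for atp2b2, 0.54 for SLC4A2, 0.53 for stab2, 0.49 for trim33 and 0.52 for MXRA5. In the same group it was -1.87 for ERBB4, -0.66 for PBX3, 0.64 for SLC2A1, 2.34 for vap, -1.65 for brinp1 and -0.32 for srgap3. It was also -2.13 for MIP. With opposite calls at the stages it was -1.14 for TNC. Among genes called at neither stage it was 0.42 for apoa4a, -0.25 for zmym4.2, 0.47 for MCAM and -1.17 for EDNRB.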

How the results depend on the processing

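Without the clutch block (no replicate block), 19 genes were called for the stage difference (4 positive and 15 negative), 172 at 30 hpf (52 higher, 120 lower) and 97 at 22 hpf (29 higher, 68 lower). Leaving out 1 library each from that unpaired fit gave 16 to 21 for the difference (4 to 6 positive, 11 to 15 negative), 121 to 176 at 30 hpf (30 to 53 higher, 88 to 125 lower) and 75 to 95 at 22 hpf (18 to 31 higher, 55 to 67 lower). With the block, leaving out each pair gave 72 to 130 for the difference (33 to 65 positive, 39 to 70 negative), 375 to 737 at 30 hpf (165 to 355 higher, 210 to 382 lower) and 221 to 376 at 22 hpf (79 to 169 higher, 134 to 207 lower). The count at 30 hpf was lowest without clutch 4, and higher calls at 22 hpf were 79 without clutch 11 and 87 without clutch 13. DESeq2 called 52 genes (22 positive, 30 negative), 330 at 30 hpf (143 higher, 187 lower) and 175 at 22 hpf (65 higher, 110 lower). Fits without a library or pair hold fewer samples, and for the other shifts the cause was not tested. Other scalings and filters, limma-voom and leaving out clutch 9 at both stages kept the count of the difference within 1.5 times of 105, and all 105 genes kept their sign with the block.

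Of 2002 values of named genes, 24 reversed, all for genes that were not called. Over the fits that left out a library or pair, the log2 difference ran from -0.14 to 0.13 for dhodh, from -0.81 to 0.15 for gata1a, from -0.29 to 0.17 for SPI1 and from -1.09 to 3.66 for hbae5, which has no mon read at 22 hpf. Without clutch 9 at both stages it was 0.087 for dhodh, 0.46 for gata1a and 0.071 for SPI1. Sizes for genes with few reads at 22 hpf, such as and3 and hif1al2, are limited by depth.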
